A study of Homo sapiens with 3 samples.

Results

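The AP-1 and immediate early genes examined here were 10 genes of T24 cells, a human bladder carcinoma line: FOS, FOSB, FOSL1 and FOSL2, JUN, JUNB and JUND, EGR1, ATF3 and IER3. They were taken by symbol from the 58381 genes of the deposited count table, and each of the 10 matched 1 row. RNA was sequenced from 3 groups with 1 library each. Ctrl cells were labelled as empty-treated and were not irradiated, RT cells were the control line after irradiation, and RT + shHDAC6 cells were irradiated cells carrying a lentiviral shRNA against HDAC6; the labels give 10 Gy from a caesium source. Per the labels the control line carried the pLKO.1 vector, and all lines were selected with puromycin, whereas the study's results call the comparator parental. The knockdown rests on 1 shRNA, and none of the 3 libraries came from unirradiated knockdown cells. The time between irradiation and RNA extraction is not given in the sources used here.

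AP-1 is a transcription factor made of pairs of bZIP proteins. JUN proteins pair with each other or with FOS proteins, whereas FOS proteins need a JUN partner to bind DNA. Immediate early genes such as FOS, EGR1 and IER3 are switched on within minutes by growth factors or stress, without new protein synthesis, largely through the ERK kinases and serum response factor at CArG boxes, and their mRNAs are short-lived. FOSL1, which encodes FRA-1, accumulates under sustained ERK signalling and is known in carcinoma cells for its link to motility and invasion.

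The libraries held 35424086 to 41811165 counts. TMM scaling, which the study also used, placed all log2 ratios of RT against Ctrl 0.22 above those from library totals, and those of RT + shHDAC6 against RT 0.084 below. HDAC6 itself gave counts of 3098 (Ctrl), 2383 (RT) and 2170 (RT + shHDAC6), which is 87.2% of its RT level after scaling (log2 ratio -0.20, interval -0.28 to -0.11). Of all genes tested, 28.2% had a lower ratio in this comparison, so a knockdown of the targeted mRNA was barely visible in the library labelled RT + shHDAC6. By other assays, the paper reports reduced HDAC6 mRNA (qPCR) and protein (Western blot) in its shHDAC6 T24 cells. It also reports that the knockdown abolished the rise of HDAC6 protein after irradiation. That blot followed a lower dose than the 10 Gy of the labels. VIM and KRT18, markers of this line, were abundant, but the uroplakin genes UPK1B, UPK2 and UPK3A had at most 3 counts in any library, and 10 markers of blood, endothelial, liver and muscle cells summed to 20.5, 10.8 and 14.5 TPM, an abundance relative to transcript length and library depth. With 1 library per condition, the spread between cultures is unknown and no test between conditions was made. Intervals are 95% Clopper-Pearson limits and cover counting error only. A gene is said to have risen or fallen only where its scaled level differed at least 2-fold. In bulk RNA, a lower level per cell and fewer expressing cells cannot be told apart.

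Sequence before the transcription start was available for 8 of the 10 genes, from RefSeq on GRCh38.p14. FOSL1 and IER3 had no entry. That made 9 promoters, since the set listed a pair of starts for ATF3. Only listed starts were searched, and whether each is a start used in these cells was not tested. The 250 bases before each start were searched on both strands for the AP-1 site TGANTCA, the cAMP response element TGACGTCA, the related sequence TGACATCA known from the JUN promoter, the CArG box, the EGR site GCGNGGGCG, the TATA box (TATAAA), the CCAAT box and the GC box (GGGCGG). EGR1 is shown because its window was the only member window with CArG boxes, which 1.16% of all 35116 promoters hold. Sequence beyond 250 bases was not searched, so CArG boxes farther out in other members, such as FOS, would not be seen. Capitals mark a match to the EGR site followed by CArG boxes at 105 and 83 bases before the start; the stretch is chr5:138465271-138465415, plus strand.
EGR1: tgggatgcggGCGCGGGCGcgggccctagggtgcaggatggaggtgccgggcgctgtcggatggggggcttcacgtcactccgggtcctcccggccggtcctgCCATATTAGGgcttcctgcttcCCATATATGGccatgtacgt

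JUN, the upstream start of ATF3 and JUND are shown together because they hold closely related bZIP sites, in capitals. JUN and ATF3 held TGACATCA, present in 2.37% of all promoters, and JUND held TGACGTCA, present in 1.65%. The windows are chr1:58784095-58784124 on the minus strand, chr1:212565274-212565303 on the plus strand and chr19:18281803-18281832 on the minus strand.
JUN: ggccttggggTGACATCAtgggctattttt
ATF3: acctatgataTGACATCAtatggccactca
JUND: gccgcccccaTGACGTCAacccacaaggca

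FOS and FOSB held a TATA box 30 to 33 bases before the start, the usual place for one; TATAAA occurs in 10.7% of all windows. It is in capitals in chr14:75278785-75278814 and chr19:45467956-45467985, both on the plus strand.
FOS: aaacgcttgtTATAAAagcagtggctgcgg
FOSB: gtcccgggcaTATAAAtacaggctggcggg

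The AP-1 site TGANTCA was in 0 of the 9 windows and in 6.57% of all promoters. Such matches are letters within this window and say nothing of what is bound there. In FOSL2, the GC box was the only one of these motifs found. Its window, chr2:28392608-28392857 on the plus strand, lies inside the gene as annotated by GENCODE, which begins at 28392448. Sequence before that base was not searched.

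The transcripts were 1237 to 6713 bases long. JUN, JUNB and JUND are single-exon genes, EGR1 and IER3 have 2 exons, and the other 5 genes have 4 exons. The AUUUA core of the AU-rich elements that mark an mRNA for decay (ATTTA in DNA letters) occurred at least once in the 3′ UTR of all 10 genes, from 1 copy in FOSL1, JUND and EGR1 to 9 in FOSL2. Genes without the longer element described next had a median of 2 copies and genes with it 9. Members without it had 1 to 6 copies, the most in IER3, and of those with it FOS had 5. Whether copy number sets the members apart, given their differing 3′ UTR lengths, was not tested. The longer element TTATTTATT was in FOS and FOSL2 and in 9.44% of the protein-coding genes tested for RT against Ctrl. It is shown in capitals with its flanks, from GENCODE release 44 transcripts, because FOS is the classic unstable mRNA.
FOS: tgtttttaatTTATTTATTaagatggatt
FOSL2: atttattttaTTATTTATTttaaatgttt

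Per transcript length, FOSL1 and JUN were the leading AP-1 mRNAs in all 3 libraries. The order in Ctrl was IER3 (280.3 TPM) and FOSL1 (276.7 TPM), whose counting intervals overlapped, then JUN (199.9), JUND (108.4), FOSL2 (100.6), EGR1 (68.7), JUNB (61.6), FOS (29.3), ATF3 (10.8) and FOSB (8.14). In RT, FOSL1 stood first at 635.4 TPM, followed by JUN at 226.1 and IER3 at 136.8, and the neighbouring pairs JUNB with JUND and FOSB with ATF3 did not differ beyond counting error. In RT + shHDAC6, FOSL1 reached 851.1 TPM, JUN 228.2 and FOSL2 121.0, while IER3, at 58.2, stood below JUNB (77.6) and EGR1 (48.5) and JUND (47.8) could not be ordered. FOS, FOSB and ATF3 stayed under 30 TPM in each library. TPM carry no TMM scaling, so differences between libraries in TPM need not match the log2 ratios given below. FOSL2 was at 100.6 TPM in Ctrl and 81.4 in RT, beside a log2 ratio of 0.018.

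Relative to untreated cells, irradiated cells had more FOSL1 and less EGR1 and JUND mRNA. Of the 10 genes, 1 rose at least 2-fold and 2 fell; among all 20267 genes with at least 10 counts in either library, 4.81% rose and 9.17% fell. The median log2 ratio of the 10 was -0.50, beside -0.062 for all genes tested. With library totals in place of TMM the median of the 10 was -0.72, ATF3 also passed 2-fold (-1.16), and among all genes 523 rose and 2845 fell in place of 975 and 1858. At a 1.5-fold line, 1 member was higher and 5 were lower, beside 14.5% and 20.5% of all genes tested.

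The library labelled RT + shHDAC6 had more EGR1 and FOSB and less IER3 mRNA than that of RT. At least 2-fold rises were seen in 2 of the 10 genes and a fall in 1, where 4.35% of all 19013 genes tested rose and 4.78% fell. The median of the 10 was 0.56, beside -0.0032 for all genes tested, and 8 of the 10 log2 ratios were above 0. At 1.5-fold, 5 members were higher and 1 lower, beside 10.1% and 9.93%. Since the RT library enters both comparisons, a deviation of that library alone would lower a gene in the first and raise it in the second; levels against Ctrl are therefore given beside each gene. For RT + shHDAC6 against Ctrl, FOSL1 rose and IER3 fell at least 2-fold, with 4.91% of all genes tested higher and 10.5% lower; at 1.5-fold 2 members were higher and 2 lower, beside 13.9% and 20.5%.

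**Figure D1:**
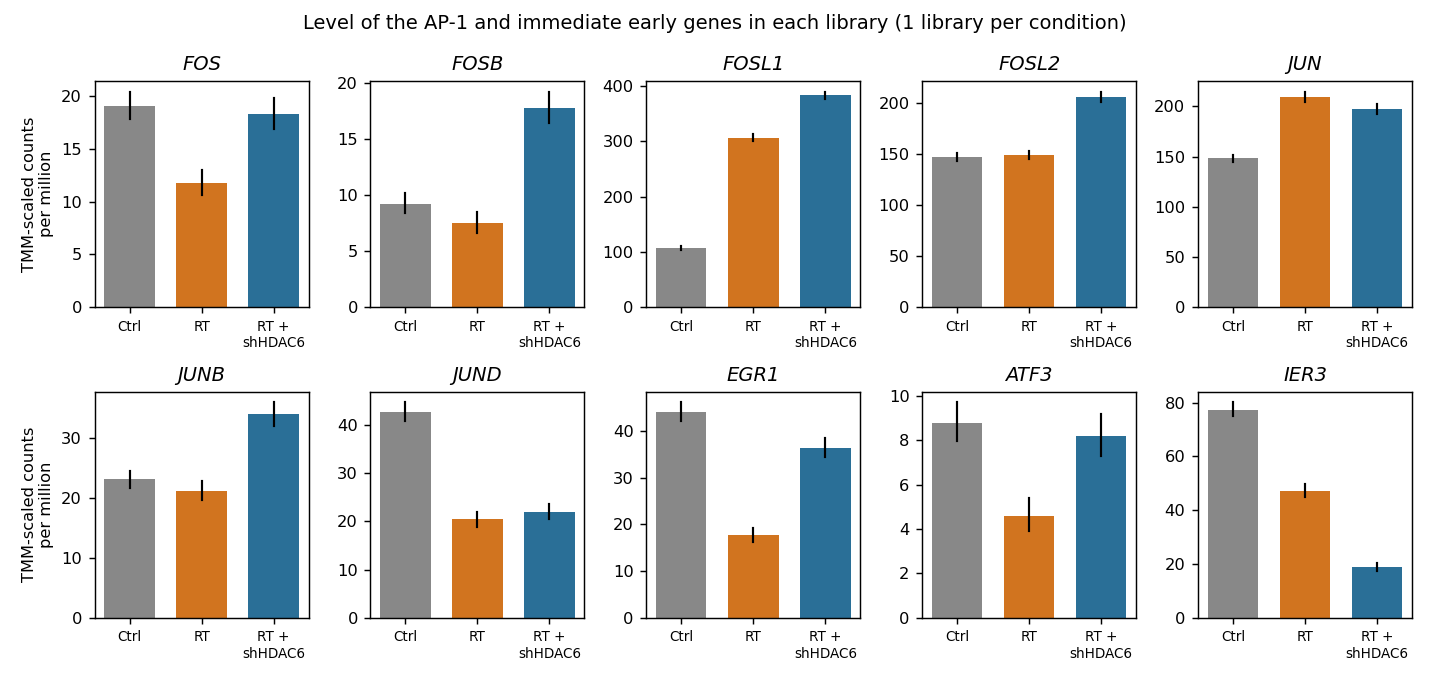
TMM-scaled CPM, counts relative to library depth, of each of the 10 genes (vertical axes, separate for each gene, starting at 0) in the 1 library of each condition; black lines are 95% exact Poisson counting intervals. FOSL1 climbs from 106.8 to 383.1, IER3 declines from 77.4 to 18.7, and FOS, EGR1 and ATF3 are lowest in RT.

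FOSL1 (ENSG00000175592, chromosome 11, 65892049 to 65900573) gave counts of 4843 (Ctrl), 10288 (RT) and 13416 (RT + shHDAC6). Ctrl was lowest and RT + shHDAC6 highest. RT was 2.87-fold above Ctrl, a log2 ratio of 1.52 (interval 1.47 to 1.57), and 98.8% of all genes tested had a lower ratio. In RT + shHDAC6 the gene stood at 0.32 (interval 0.28 to 0.36) relative to RT and at 1.84 (interval 1.80 to 1.89) relative to Ctrl, which is 3.59-fold. It was the only member above 2-fold in RT + shHDAC6 against Ctrl.

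FOSL2 (chromosome 2, 28392448 to 28417317), which encodes FRA-2, gave counts of 6684 (Ctrl), 5005 (RT) and 7236 (RT + shHDAC6). Its scaled levels in Ctrl and RT lay close together and that in RT + shHDAC6 was higher. The log2 ratio was 0.018 for RT against Ctrl (interval -0.035 to 0.071), which turned negative under library totals (-0.20) and upper quartile factors (-0.039). It was 0.47 (interval 0.42 to 0.52) for RT + shHDAC6 against RT and 0.49 (interval 0.44 to 0.54) against Ctrl, short of 2-fold throughout.

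FOS (chromosome 14, 75278826 to 75282230), the founding member of the family, gave counts of 867 (Ctrl), 394 (RT) and 642 (RT + shHDAC6). RT was the low library. The log2 ratio was -0.70 (interval -0.88 to -0.53) for RT against Ctrl and 0.64 (interval 0.46 to 0.83) for RT + shHDAC6 against RT, neither at 2-fold, and the interval of RT + shHDAC6 against Ctrl included 0 (-0.060, interval -0.21 to 0.089). FOSB (chromosome 19, 45467995 to 45475179), whose protein can outlast that of FOS, had 419, 252 and 622 counts. Here RT + shHDAC6 was the high library. FOSB was at -0.30 (interval -0.53 to -0.069) in RT against Ctrl, rose 2.36-fold in RT + shHDAC6 against RT (1.24, interval 1.03 to 1.46), and lay at 0.94 (interval 0.76 to 1.13) relative to Ctrl. Inside each library, where no scaling enters, FOSB counts were 0.483, 0.640 and 0.969 times those of FOS.

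The FOS family thereby shifted in makeup. Summed over the 4 genes, without TMM scaling, it reached 414.8 TPM without irradiation, 736.6 in RT and 1010 in RT + shHDAC6. FOSL1 made up 66.7% of it in Ctrl, and 86.3% and 84.3% in the RT and RT + shHDAC6 libraries, and FOS 7.07%, 1.96% and 2.39%. By counts alone, which favour the longer FOSL2, FOSL1 took 37.8% (interval 37.0 to 38.6), 64.5% (interval 63.8 to 65.3) and 61.2% (interval 60.6 to 61.9). FOSL1 exceeded FOS 9.43-fold per length in Ctrl, 44.1-fold in RT and 35.3-fold in RT + shHDAC6.

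JUN (chromosome 1, 58776845 to 58784048), the partner that FOS proteins most often use, gave counts of 6719 (Ctrl), 7029 (RT) and 6907 (RT + shHDAC6). After scaling both irradiated libraries lay above Ctrl. The log2 ratio was 0.50 (interval 0.45 to 0.55) for RT against Ctrl and -0.087 (interval -0.14 to -0.039) for RT + shHDAC6 against RT. Relative to Ctrl, RT + shHDAC6 was at 0.41 (interval 0.36 to 0.46), so JUN passed 2-fold nowhere. JUN was 1 of 2 members under RT in RT + shHDAC6, but with library totals its log2 ratio was only -0.0036.

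JUNB (chromosome 19, 12791486 to 12793315), which often restrains JUN in growth control, had 1045, 708 and 1186 counts. RT + shHDAC6 was highest on the scaled measure. RT could not be told from Ctrl by counting error alone (-0.13, interval -0.27 to 0.013), and RT + shHDAC6 was at 0.68 (interval 0.55 to 0.82) relative to RT and 0.56 (interval 0.43 to 0.68) relative to Ctrl. The HOOK2 gene on the other strand covers 14.2% of its exon length, with 1471 counts over the 3 libraries.

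JUND (chromosome 19, 18279694 to 18281622), a family member that is commonly made in resting cells, gave counts of 1940 (Ctrl), 685 (RT) and 770 (RT + shHDAC6). Ctrl stood alone as the high library. JUND fell in RT to 47.7% of Ctrl, a log2 ratio of -1.07 (interval -1.19 to -0.94), and RT + shHDAC6 could not be told from RT at this depth (0.11, interval -0.044 to 0.26). Against Ctrl, RT + shHDAC6 was at -0.96 (interval -1.08 to -0.84), or -1.09 with library totals.

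Without TMM scaling, the JUN family sum was 369.9 TPM in Ctrl, with 312.5 in RT and 353.5 in RT + shHDAC6. JUN made up 54.0%, 72.3% and 64.5% of it, and JUND 29.3%, 13.2% and 13.5%. JUNB took 16.6%, 14.4% and 21.9%. The FOS family sum was 1.12 times that of the JUN family in Ctrl, 2.36 times in RT and 2.86 times in RT + shHDAC6. The family sums were not recomputed with TMM scaling, so their order between libraries holds for TPM only. JUN itself was at 199.9 TPM in Ctrl and 226.1 in RT, beside a TMM-scaled log2 ratio of 0.50. Levels of mRNA do not give levels of the paired proteins.

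**Figure D2:**
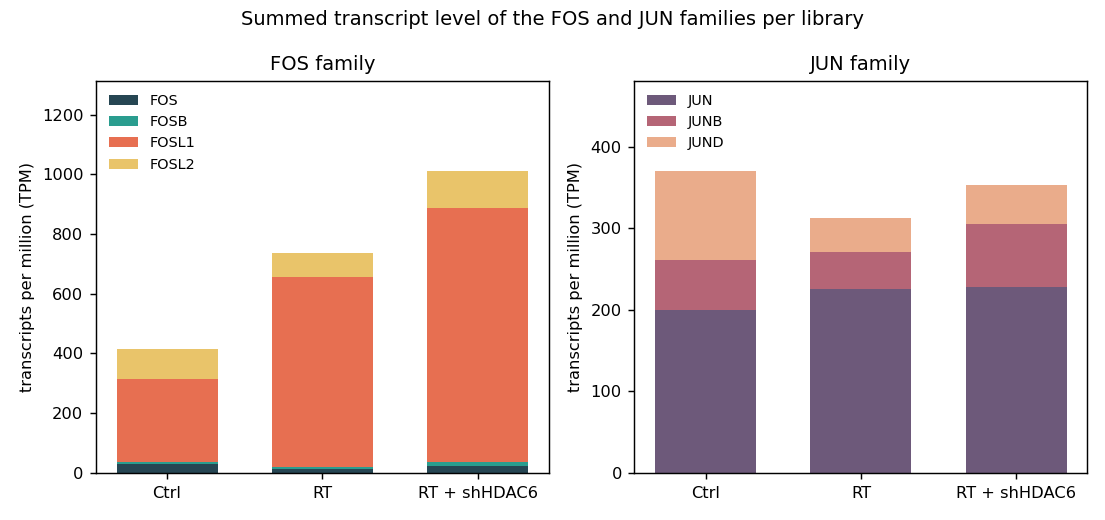
Stacked TPM (vertical axes from 0) of the 4 FOS family genes and the 3 JUN family genes in each library. The FOS family sum goes from 414.8 to 1010 TPM, almost all of the added height being FOSL1. The JUN family sum stays between 312.5 and 369.9 TPM, with a smaller JUND block in both irradiated libraries. TPM carry no TMM scaling, so the order of the sums between libraries holds for TPM only.

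EGR1 (ENSG00000120738, chromosome 5, 138465479 to 138469303), a zinc finger factor whose promoter holds the CArG boxes shown above, gave counts of 1999 (Ctrl), 592 (RT) and 1272 (RT + shHDAC6). RT was the low library by a wide margin. EGR1 fell in RT to 40.0% of Ctrl (-1.32, interval -1.46 to -1.19), the largest fall of the 10 genes, with 4.90% of all genes tested lower. In RT + shHDAC6 it rose 2.06-fold relative to RT (1.04, interval 0.90 to 1.18), just past the 2-fold line, and lay at 82.4% of Ctrl (-0.28, interval -0.38 to -0.18).

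ATF3 (chromosome 1, 212565334 to 212620777), a stress-induced bZIP protein that can pair with JUN, gave counts of 399 (Ctrl), 154 (RT) and 287 (RT + shHDAC6). RT was again lowest. The log2 ratio was -0.94 (interval -1.22 to -0.67) for RT against Ctrl and 0.84 (interval 0.55 to 1.13) for RT + shHDAC6 against RT, both short of 2-fold, and a difference between RT + shHDAC6 and Ctrl was not detectable at this depth (-0.10, interval -0.33 to 0.12). ATF3 counts were 0.460, 0.391 and 0.447 times those of FOS in the 3 libraries, with overlapping intervals.

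IER3 (ENSG00000137331, chromosome 6, 30743199 to 30744548), which encodes the stress and survival regulator IEX-1, took another course. It gave counts of 3510 (Ctrl), 1585 (RT) and 656 (RT + shHDAC6). Ctrl was highest and RT + shHDAC6 lowest. RT stood at -0.71 (interval -0.80 to -0.63) relative to Ctrl, short of 2-fold, and RT + shHDAC6 fell to 39.6% of RT (-1.33, interval -1.47 to -1.20) and to 24.2% of Ctrl (-2.05, interval -2.17 to -1.93). Within a library IER3 had 1.76 times the counts of EGR1 in Ctrl, 2.68 times in RT and 0.516 times in RT + shHDAC6. Genes on the other strand, HCG20 and IER3-AS1, cover 38.9% of its exon length but had 14 and 32 counts over the 3 libraries.

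**Figure D3:**
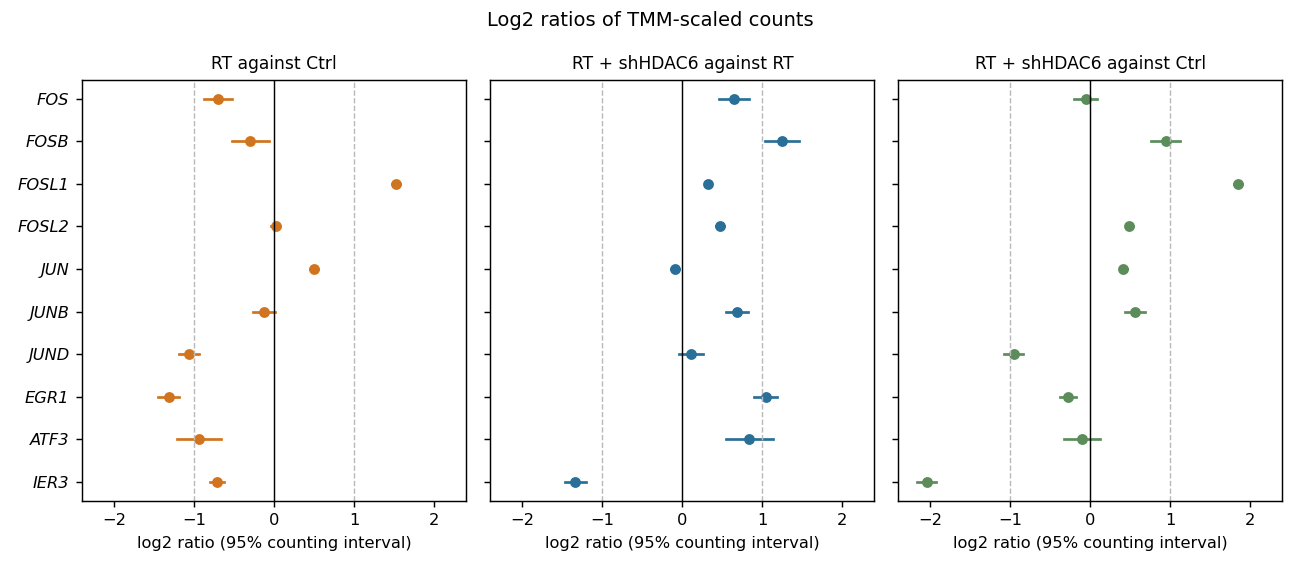
Log2 ratios of TMM-scaled counts (horizontal axes) of the 10 genes in each pair of libraries; points are the ratios, coloured lines 95% counting intervals and dashed lines 2-fold. EGR1 lies at -1.32 in RT against Ctrl and 1.04 in RT + shHDAC6 against RT, FOSL1 stands apart on the right of the first panel, and IER3 lies left of 0 in all panels.

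The level of a gene moved with its ratio across the table. Protein-coding genes with a mean level under 1 CPM (TMM-scaled) had a median log2 ratio of -0.56 in RT against Ctrl, those from 20 to under 50 had 0.12 and those of 500 or more had 0.31; in RT + shHDAC6 against RT the medians were 0.26, -0.010 and -0.11. The 10 genes all lay above the lowest classes. Of the 2960 genes from 20 to under 50, which include EGR1, JUND, JUNB and IER3, 0.811% fell at least 2-fold in RT, and in RT + shHDAC6 against RT 0.372% rose and 1.59% fell. Among the 1458 genes from 10 to under 20, the class of FOS and FOSB, 0.960% rose in RT + shHDAC6, and of the 735 genes from 200 to under 500, the class of FOSL1, 7.89% rose in RT. In RT against Ctrl the median also went up with the GC content of the transcript, from -0.15 in the 10% of genes with the lowest GC to 0.11 in the 10% with the highest, which include JUND (69.9% GC) and JUNB (64.9% GC). Markers of other cell types were lowest in RT, as FOS, EGR1 and ATF3 were: their summed level is given above, and of 10 markers 7 were tested, 6 of them were under 0 in RT against Ctrl (median -0.56) and 6 above 0 in RT + shHDAC6 against RT (median 0.26). The endothelial marker PECAM1, with 489 counts in Ctrl, 209 in RT and 323 with the shRNA, was at -0.79 (interval -1.03 to -0.55) and 0.57 (interval 0.31 to 0.82). The part of these trends in the members' differences was not tested.

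Other immediate early genes showed no common direction with irradiation. Of the 36 genes listed, 34 were tested in RT against Ctrl, with a median of -0.095. At least 2-fold, 5 rose and 0 fell, beside 4.81% and 9.17% of all genes tested. The matrix proteins CCN1 (23992 counts in Ctrl and 65788 in RT, 1.89, interval 1.87 to 1.91) and CCN2 (2726 and 6734, 1.74, interval 1.68 to 1.80) and the kinase gene SGK1 (1104 and 2159, 1.40) rose. ARC and DUSP2 also passed 2-fold, with at most 22 counts. At the other end lay RHOB at -0.82 and the nuclear receptor genes NR4A2 at -0.76 and NR4A1 at -0.68, which were under 2-fold.

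In RT + shHDAC6 against RT, 35 of these 36 genes were tested and 23 were above 0, with a median of 0.23. At least 2-fold, 1 rose and 2 fell, beside 4.35% and 4.78% of all genes tested. CCN2 fell from 6734 to 2127 counts (-1.72, interval -1.80 to -1.65) and SGK1 from 2159 to 787 (-1.52, interval -1.64 to -1.40), and CCN1 was at -0.77. The gene that rose was EGR4, from 4 to 15 counts. KLF2 (0.54), NFKBIZ (0.53) and NR4A3 (0.47) were the highest among genes with at least 100 counts.

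Of the 27 other bZIP genes, 0 rose and 1 fell in RT against Ctrl, beside 4.81% and 9.17% of all genes tested. That gene, BACH2, had at most 11 counts and an interval that included 0. In RT + shHDAC6 against RT, 0 of 26 passed 2-fold in either direction, where 4.35% of all genes tested rose and 4.78% fell. NFE2L1, which drives proteasome genes, was highest in RT against Ctrl at 0.996 (17459 and 25759 counts), just short of 2-fold, followed by ATF6 (0.90) and ATF5 (0.73). CREB5 (-0.82) and ATF2 (-0.69) were among the lowest. In RT + shHDAC6 against RT the small MAF gene MAFF (0.49) and ATF4 (0.40) were highest and NFE2L1 (-0.50) lowest.

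Upstream of AP-1, 0 of 22 kinase and serum response factor genes passed 2-fold in either comparison. Among all genes tested, 4.81% rose and 9.17% fell in RT against Ctrl, and 4.35% rose and 4.78% fell in RT + shHDAC6 against RT. MAPK3, which encodes ERK1, was lowest in RT against Ctrl at -0.94 (4262 and 1645 counts) and MAP2K7, a kinase that activates JNK, highest at 0.47. SRF was at 0.20 and ELK1 at 0.17 in RT + shHDAC6 against RT, the highest and the third in the list, and MRTFB (-0.39) and MAP2K1 (-0.37) were lowest.

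Of the 20 negative regulators, which dampen ERK signalling, destabilise immediate early mRNAs or hold back EGR1, 0 passed 2-fold in either comparison. The shares of all genes tested were 4.81% higher and 9.17% lower in RT against Ctrl, and 4.35% and 4.78% in RT + shHDAC6 against RT. In RT against Ctrl 15 were under 0, with a median of -0.29, beside -0.062 for all genes tested. The ERK phosphatase gene DUSP4 was lowest at -0.83 (693 and 288 counts), before BTG1 (-0.77) and BTG2 (-0.67). In RT + shHDAC6 against RT, DUSP5 (0.94, 752 and 1506 counts), DUSP4 (0.87) and SPRY4 (0.60) were highest. DUSP4, DUSP5 and SPRY4 are themselves ERK-induced genes.

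Several known AP-1 target genes rose in RT. In RT against Ctrl, 29 of 30 were tested, 7 rose and 1 fell, beside 4.81% and 9.17% of all genes tested, and their median was 0.50, beside -0.062. EDN1 (71 and 204 counts, 1.96, interval 1.56 to 2.37), the receptor kinase gene AXL (2.83-fold), PLAUR (1.22), PLAU (1.11), CD44 (1.04) and CXCL8 were among those that rose; the study singled out EDN1 from these libraries, so it is not independent of them. The fall was that of IL11, from 28 to 10 counts with an interval that included 0, and VEGFA (-0.73), AREG (-0.71) and MMP9 (-0.56) were the lowest with at least 100 counts. The collagenase gene MMP1, a classic target, had 62, 26 and 39 counts.

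In RT + shHDAC6 against RT the AP-1 targets went both ways, with 2 rises, 3 falls and a median of -0.035. Of all genes tested, 4.35% rose and 4.78% fell. EDN1 fell from 204 to 64 counts (-1.73), and IL6 from 12 to 6 counts with an interval that included 0. CXCL8 rose from 73 to 154 counts (1.01) and IL11 from 10 to 26. PLAU, at 0.43 (13592 and 19110 counts), was the highest after CXCL8 among genes with at least 100 counts.

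The 12 EGR1 targets, 3 of which are also in the AP-1 list, had a median of -0.32 in RT against Ctrl. There 1 rose and 2 fell, beside 4.81% and 9.17% of all genes tested. PDGFB (257 and 54 counts, -1.82, interval -2.27 to -1.39) and the stress cytokine gene GDF15 (679 and 178 counts) fell, whereas tissue factor, F3, rose (1.07, interval 0.97 to 1.17). In RT + shHDAC6 against RT the median was 0.14; F3 fell from 2106 to 450 counts (-2.29, interval -2.44 to -2.14), and PDGFA was highest at 0.94 (249 and 497 counts). The EGR1 corepressor NAB2 was at 0.28. For comparison, 13 reference genes had medians of 0.021 and -0.058, and 1 of them, TFRC, rose in RT (1.55).

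**Figure D4:**
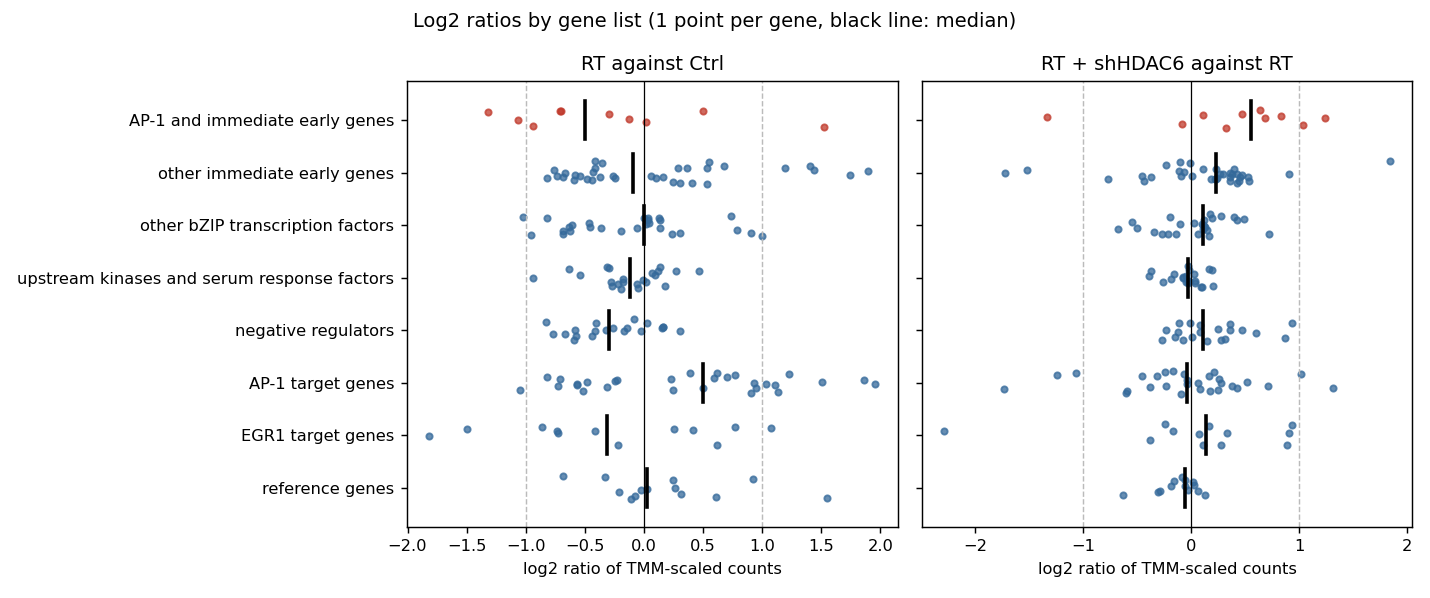
Log2 ratios of TMM-scaled counts (horizontal axes) for each gene tested in 8 lists (rows), with the median of each list as a black line and 2-fold as dashed lines. The 10 AP-1 and immediate early genes have medians of -0.50 and 0.56, AP-1 targets of 0.50 and -0.035, and reference genes of 0.021 and -0.058.

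Among 119 listed genes that reached 100 counts somewhere, those nearest to each member in the pair of log2 ratios (RT against Ctrl and RT + shHDAC6 against RT, from 3 libraries) were found by Euclidean distance. For FOS they were SPRY4 (distance 0.13) and KLF4 (0.22). DUSP4 was near ATF3 (0.11) and, though farther, EGR1 (0.52). FOSL2 had PMAIP1 (0.062) and MAFF (0.11), JUN had MAP2K7 (0.068) and PLK2 (0.098), and JUND had MAPK3 (0.14) and RHOB (0.26). DUSP5 was nearest to FOSB (0.30) and NR4A3 to JUNB (0.31). Within these lists FOSL1 lay nearest to PLAU (0.43) and PLAUR (0.46), both from the AP-1 target list. The candidates came only from lists chosen around AP-1 and EGR1, without the reference genes. Regulation of a neighbour by a member was not tested. IER3 had no gene closer than 0.99, at PTGS2.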

How the data were processed

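Total RNA of T24 cells was sequenced in 3 libraries, 1 per condition. Per the paper, the authors removed adapters (cutadapt), used STAR for alignment to GRCh38, and let featureCounts assign reads to genes of GENCODE release 28; the submitters' processing notes give STAR 2.6.1a. The deposited values are raw counts without normalisation. Strand and multi-mapping settings are not given in the sources used here, so antisense genes could share counts. The paper and the labels name different library kits.

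Of 58381 genes, 57754 matched GENCODE release 44, from which symbols, positions and merged exon lengths (for TPM) were taken. TMM factors came from edgeR 4.0.16 and size factors from DESeq2 1.42.0 (R 4.3.3). Log2 ratios, with a count of 0 set to 0.5, carry 95% Clopper-Pearson limits from scipy 1.17.1; the calculation was tested on simulated data. Genes with at least 10 counts in either library were tested against a 2-fold line. The study's NOISeq probabilities were not used. PCR copies could not be removed by molecular identifiers, so intervals cover counting error only.

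The members, gene lists and alternatives were chosen with earlier results of these data known; level, GC and motif classes were added later. Named genes are the 10 members, HDAC6 and, for each list and comparison, the 3 highest and 3 lowest with at least 100 counts, plus the 2 listed genes nearest to each member; genes past 2-fold at lower counts, cell type markers, CD44, TFRC and MMP1 were named after their values were seen. Alternatives covered scaling, count filter, zero value, fold line and transcript length. Results for some genes and sequences that these rules select are not reported here.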

Additional observations from a re-analysis of the deposited data

How the results depend on the processing

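The log2 ratios of the 10 genes were recomputed 180 times under other scalings, count filters and zero values. Only the scalings could alter them, because each member had at least 154 counts in each library. Of the 180, 27 left the counting interval of the main ratio. A sign change was seen in 2, both FOSL2 in RT against Ctrl. The 2-fold line was crossed by 2, ATF3 in RT against Ctrl and JUND in RT + shHDAC6 against Ctrl, both with library totals. The counts of members and of all genes past the fold line depended on the settings as follows, in the order higher and lower. For RT against Ctrl, library totals gave 523 and 2845 genes and a median of the members of -0.72, no filter gave 4036 and 5149 genes, a filter at 100 counts gave 537 and 278, and a 1.5-fold line gave 2938 and 4156 genes with 5 members lower. For RT + shHDAC6 against RT, no filter gave 3032 and 5179 genes, 100 counts gave 120 and 259, a 1.5-fold line gave 1917 and 1888 genes with 5 members higher, and asking the interval to clear 0 as well gave 519 higher genes. For RT + shHDAC6 against Ctrl, library totals gave 2 lower members and a median of the members of 0.042, no filter gave 4157 and 5309 genes, 100 counts gave 452 and 562, and 1.5-fold gave 2830 and 4182 genes with 2 members on either side. With the longest transcript as length, FOSL1 was 65.2%, 85.8% and 83.6% of the FOS family in Ctrl, RT and RT + shHDAC6. No paired analysis was possible because each condition had 1 library. For the same reason no library could be left out, and the variation between libraries of these cells is not known.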
